A study of Mus musculus with 6 samples.

Results

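Ccar2, its paralog Ccar1 and the sirtuin genes Sirt1 to Sirt7 were followed in the bone marrow of 2 mouse crosses. Every probe set that the array's annotation gives exactly 1 gene symbol, that symbol being one of these genes, was taken, which gave 13 of the 45037 probe sets tested and 9 of the 18193 genes. The set was chosen by the AKR F1 minus DBA F1 difference of Ccar2, whose transcript was among the largest rises, so the Ccar2 values are a description and were not tested. Ccar1 and the sirtuins were taken by name, as its paralog and as the enzyme family it is known to act on. There were 6 arrays of marrow from adult female mice. The 3 arrays called AKR F1 are of the cross (AKR/J x FVB/NJ)F1, and the 3 called DBA F1 are of the cross (DBA/2J x FVB/NJ)F1. Both crosses share the FVB/NJ parent, so every animal carries an FVB/NJ copy of each autosome, and the crosses differ in whether the other copy is AKR/J or DBA/2J. The labels name no treatment besides Avertin anaesthesia before cervical dislocation, and the question was which genes differ in basal level between the genotypes. The labels do not say whether each array is a separate animal, so each p-value reflects only the spread among these 6 samples, which may be technical.

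Sirtuins are enzymes that remove acetyl and related acyl groups from lysines and consume NAD in doing so. SIRT1, SIRT6 and SIRT7 work mainly in the nucleus, SIRT2 mainly in the cytoplasm, and SIRT3, SIRT4 and SIRT5 in mitochondria. CCAR2, also known as DBC1, binds the catalytic region of SIRT1 and inhibits it, which keeps SIRT1 substrates such as p53 acetylated. In blood-forming tissue SIRT1 is known for its part in stem cell maintenance and stress responses. These are statements about proteins, and the arrays measured RNA only.

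The samples carried the transcripts of marrow, and markers of skeletal muscle beside them. The mean of 14 neutrophil markers lay between 12.24 and 12.71 on the log2 scale over the 6 arrays, and that of 8 erythroid markers between 10.79 and 11.16. Skeletal muscle markers averaged 7.38, 8.15 and 6.81 in AKR F1 replicates 1 to 3, against 11.38, 8.69 and 9.45 in DBA F1, over 16 of 16 genes, with 9 lower and 0 higher past the test. Erythroid, T cell and monocyte and macrophage marker means were higher in every AKR F1 array than in any DBA F1 array. Of their genes 3 of 8, 2 of 8 and 4 of 11 passed the test, all higher. Neutrophil and B cell marker means overlapped between the groups. Neutrophil genes past the test were 1 higher and 1 lower of 14, and B cell genes 1 higher and 2 lower of 11. For all 18193 genes 15.2% passed, and the groups did not overlap in 36.7%. Control measures also separated the groups. The 3' to 5' index, the mean excess of 3' over 5' control probe sets for actin, Gapdh and 4 poly-A spikes, was 1.66 to 2.22 in AKR F1 and 1.44 to 1.54 in DBA F1, and the hybridization controls averaged 9.74 to 9.95 in AKR F1 and 10.27 to 10.72 in DBA F1.

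Ccar2 was about 3-fold higher in AKR F1 marrow, with almost no spread within either cross. Its probe set, 1426012_a_at, read 8.20, 8.23 and 8.31 in AKR F1 replicates 1 to 3, against 6.58, 6.67 and 6.66 in DBA F1. The groups do not overlap. Ccar2 was chosen for this difference, so its gap beside the scatter inside the crosses is a description only. The means were 8.24 ± 0.06 in AKR F1 and 6.64 ± 0.05 in DBA F1 (SD, n = 3 each), a difference of 1.61 on the log2 scale (SE 0.08), or 3.05-fold. Among all genes this was the 10th largest rise, which is what brought Ccar2 into the set. Ccar2 lies on chromosome 14 and has no second probe set with a single symbol, so no such reading checks the difference. Probe sets with several symbols or none were not examined for Ccar2. Strain variants under its probes were not analysed here. Whole marrow was measured, and in such samples fewer cells of a type and less RNA per cell cannot be told apart. The muscle marker mean, the 3' to 5' index and the hybridization controls separate the same groups, and the part of muscle RNA in the difference was not tested. With the 3' to 5' index as a covariate the difference was 1.55, and with the hybridization controls it was 1.72.

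Across the other 12 probe sets the differences went both ways. By limma's linear model, Benjamini-Hochberg adjusted over all probe sets and called under 0.05, 3 of the 12 passed, 1 higher and 2 lower in AKR F1, and 9 did not. Over all 45037 probe sets 12.3% passed, 5.57% higher and 6.73% lower. The 3 AKR F1 arrays lay entirely above or below the 3 DBA F1 arrays in 6 of the 12, against 33% of all probe sets. The median difference of the 12 was 0.08, against 0.03 for all probe sets, and the median size was 0.30, against 0.15. The 12 differences all lay within the 5th to 95th percentile of all probe set differences, which spans -0.57 to 0.48. That Ccar2 lay outside this range follows from its choice for a large difference.

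**Figure D1:**
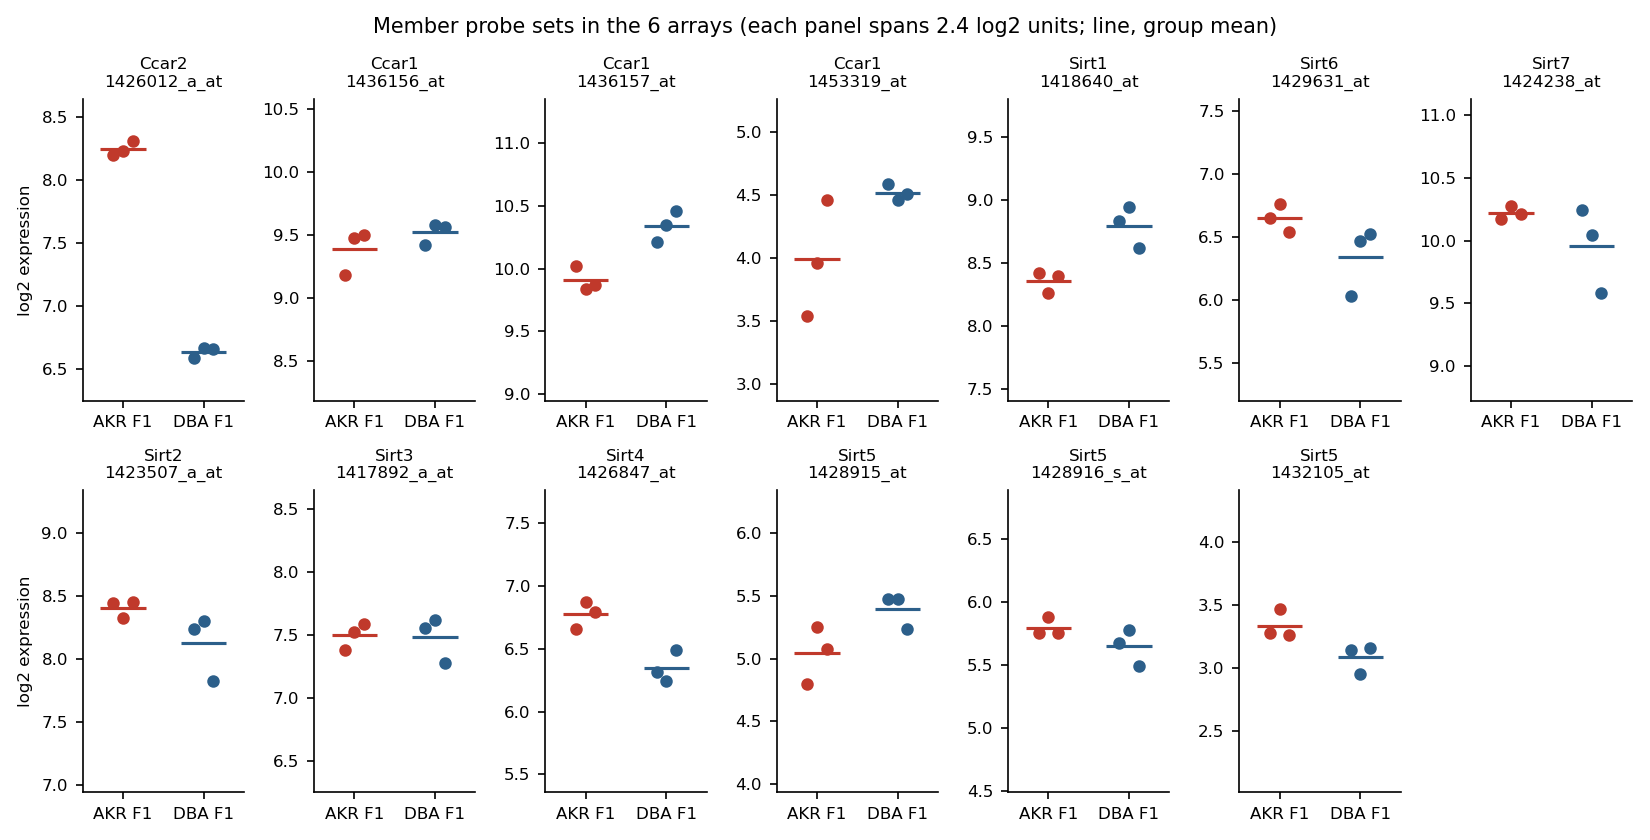
Log2 expression of the 13 probe sets in each array, with AKR F1 (red) left of DBA F1 (blue), replicates 1 to 3 from left to right and a line at each group mean. All panels span the same number of log2 units. Ccar2 stands at 8.20 to 8.31 in AKR F1 and 6.58 to 6.67 in DBA F1, while the groups lie close together or overlap in the other panels.

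Ccar1, which encodes a coactivator of nuclear receptors and p53 that is related to CCAR2 in sequence, was lower in AKR F1 where it differed. At its brightest probe set, 1436157_at, it read 10.02, 9.84 and 9.87 in AKR F1, against 10.21, 10.35 and 10.46 in DBA F1. The groups do not overlap, and the difference was -0.43 (SE 0.10, adjusted p = 0.032 in limma), a level 1.34-fold lower in AKR F1. The second bright probe set, 1436156_at, read 9.18, 9.48 and 9.50 in AKR F1, against 9.43, 9.58 and 9.57 in DBA F1. Here the groups overlap and the difference of -0.14 did not pass (95% interval -0.39 to 0.12, adjusted p = 0.48 in limma). The third, 1453319_at, is dim, with means of 3.99 ± 0.46 in AKR F1 and 4.52 ± 0.07 in DBA F1 (SD, n = 3 each), and its difference of -0.53 did not pass (adjusted p = 0.14 in limma). All 3 probe sets therefore read lower in AKR F1, but only 1 passed, and the size of the Ccar1 difference depends on which is read. The Ccar1 difference runs opposite to that of Ccar2.

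Sirt1, the nuclear deacetylase that CCAR2 inhibits, was also lower in AKR F1. Its only probe set, 1418640_at, read 8.42, 8.26 and 8.40 in AKR F1, against 8.83, 8.94 and 8.62 in DBA F1. The lowest DBA F1 array, replicate 3, stood above the highest AKR F1 array. It differed by -0.44 (SE 0.11, adjusted p = 0.037 in limma), or 1.35-fold lower. The Sirt1 call held in 1 of the 6 limma fits that left out 1 array. The transcript of the inhibitor, chosen for its rise, was thus higher in AKR F1. Those of its paralog, called at its brightest probe set only, and of its best known target enzyme were lower. Whether these differences are linked was not tested.

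Sirt6 and Sirt7 encode the other nuclear sirtuins, a histone deacetylase of chromatin and DNA repair and a nucleolar enzyme of ribosomal RNA transcription. Sirt6 read 6.65, 6.76 and 6.54 in AKR F1, against 6.03, 6.47 and 6.52 in DBA F1. The groups are separate only by the small gap between AKR F1 replicate 3 and DBA F1 replicate 3, and the difference of 0.31 did not pass (95% interval -0.01 to 0.64, adjusted p = 0.20 in limma). Without DBA F1 replicate 1, the lowest array, it was 0.15. Sirt7 read 10.17, 10.27 and 10.21 in AKR F1, against 10.24, 10.04 and 9.58 in DBA F1. Its difference of 0.26 did not pass (95% interval -0.10 to 0.63, adjusted p = 0.34 in limma), and most of it came from DBA F1 replicate 3: without that array it was 0.07.

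Sirt2, whose product deacetylates tubulin among other cytoplasmic proteins, read 8.44, 8.32 and 8.45 in AKR F1, against 8.24, 8.30 and 7.83 in DBA F1. The difference of 0.28 did not pass (95% interval -0.02 to 0.59, adjusted p = 0.22 in limma) and was 0.13 without DBA F1 replicate 3, again the lowest array. The same array was the lowest of DBA F1 for Sirt1, Sirt3 and 2 of the 3 Sirt5 probe sets.

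Among the mitochondrial sirtuins Sirt4 passed the test and Sirt3 and Sirt5 did not. Sirt4, which encodes a mitochondrial enzyme with ADP-ribosyltransferase and lipoamidase activity that restrains glutamate dehydrogenase and pyruvate dehydrogenase, read 6.66, 6.87 and 6.79 in AKR F1, against 6.31, 6.24 and 6.49 in DBA F1. The groups do not overlap, and the difference of 0.42 passed (SE 0.10, adjusted p = 0.036 in limma), a level 1.34-fold higher in AKR F1. Sirt3, the main deacetylase of the mitochondrial matrix, read 7.38, 7.52 and 7.59 in AKR F1, against 7.56, 7.62 and 7.28 in DBA F1. Its groups overlap and its difference was 0.01 (95% interval -0.25 to 0.28, adjusted p = 0.96 in limma), so a difference as large as that of Sirt4 lies outside this interval.

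Sirt5, which encodes a desuccinylase, demalonylase and deglutarylase, gave no common direction. Its probe set 1428915_at averaged 5.04 ± 0.23 in AKR F1 and 5.39 ± 0.14 in DBA F1 (SD, n = 3 each), a difference of -0.35. The others, 1428916_s_at and 1432105_at, differed by 0.15 and 0.25, and none of the 3 passed, with adjusted p of 0.13, 0.41 and 0.16 in limma. The last of these averaged 3.34 in AKR F1 and 3.08 in DBA F1, below the lower quartile of all values at 3.72, so it carries little signal. For a gene whose probe sets point both ways the arrays do not settle a direction.

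**Figure D2:**
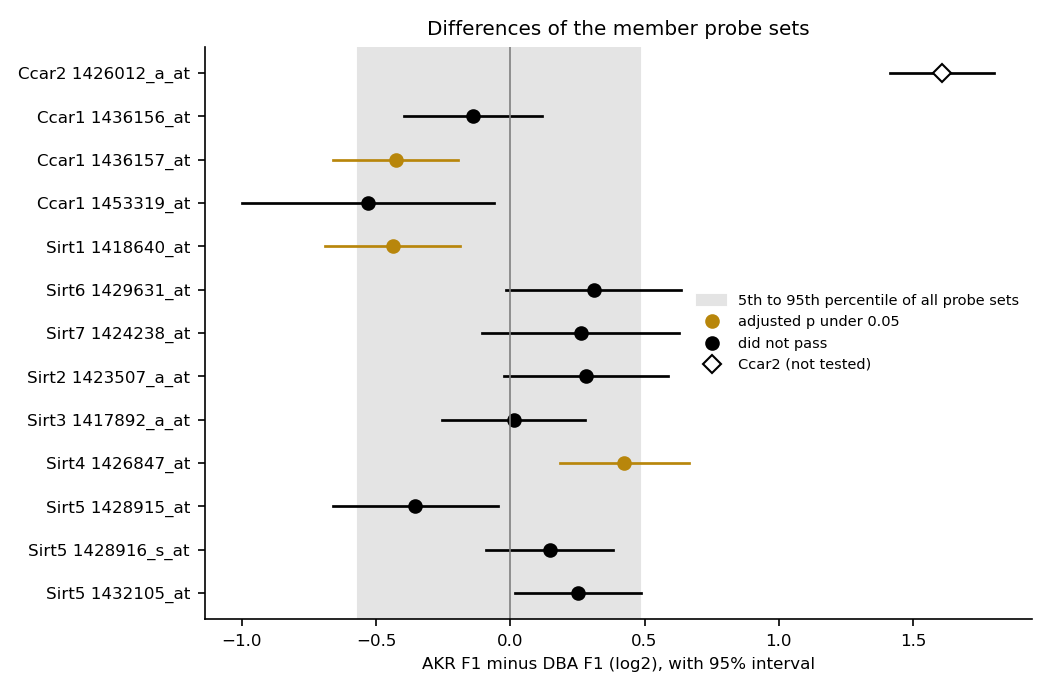
AKR F1 minus DBA F1 difference of each probe set on the log2 scale with its 95% interval from limma. Ccar2 was chosen by this difference, and its interval does not allow for that choice and is not a test. Gold points passed the adjusted threshold, black points did not, the open diamond is Ccar2 and the grey band covers the 5th to 95th percentile of all probe sets (-0.57 to 0.48). Ccar2 lies at 1.61, Ccar1 at its brightest probe set at -0.43, Sirt1 at -0.44 and Sirt4 at 0.42.

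The promoters of the 3 called members are shown because Ccar1 and Sirt1 differed in the same direction and Sirt4 in the other. Each window runs from 250 bases before to 50 after the annotated start, 5′ to 3′ in the direction of the gene, as RefSeq gives it for build GRCm38.p6. Of the 9 genes 8 are in that table, with 10 windows, and Ccar2 is not among them. Capitals mark CACGTG, the palindromic E-box read the same on both strands. The Ccar1 window is chr10:62792319-62792618, the Sirt1 window chr10:63338986-63339285 and the Sirt4 window chr5:115484248-115484547, all on the minus strand.
Ccar1: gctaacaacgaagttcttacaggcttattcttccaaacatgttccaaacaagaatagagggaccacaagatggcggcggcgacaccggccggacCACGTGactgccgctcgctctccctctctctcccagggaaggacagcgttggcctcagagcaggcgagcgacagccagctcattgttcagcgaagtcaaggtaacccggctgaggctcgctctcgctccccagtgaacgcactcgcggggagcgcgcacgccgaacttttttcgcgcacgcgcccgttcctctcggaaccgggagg
Sirt1: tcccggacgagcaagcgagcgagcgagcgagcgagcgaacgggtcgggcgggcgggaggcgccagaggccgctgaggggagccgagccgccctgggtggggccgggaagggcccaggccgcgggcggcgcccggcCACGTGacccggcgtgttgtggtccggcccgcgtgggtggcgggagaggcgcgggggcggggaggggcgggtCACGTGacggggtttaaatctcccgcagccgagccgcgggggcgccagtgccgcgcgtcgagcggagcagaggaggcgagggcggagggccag
Sirt4: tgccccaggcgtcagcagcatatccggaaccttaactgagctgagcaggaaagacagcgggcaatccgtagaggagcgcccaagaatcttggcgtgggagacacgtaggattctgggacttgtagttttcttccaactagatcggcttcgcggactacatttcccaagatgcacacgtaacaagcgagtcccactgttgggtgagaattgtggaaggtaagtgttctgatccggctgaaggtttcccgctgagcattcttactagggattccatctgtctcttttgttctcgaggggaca

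CACGTG occurs at 1 place in the Ccar1 window, beginning 156 bases before the start, and at 2 places in the Sirt1 window, 115 and 43 bases before it. It is in no other member window. It was found in 7.15% of the 32851 promoter windows of the table, and in 11.5% of the 3837 with at least 30 CpG sites, as many as the Ccar1 window has. The Sirt1 window holds 47 CpG sites and the Sirt4 window 15, against a median of 7.0 over all windows. The GC box GGGCGG, read on both strands, occurs at 7 places in the Sirt1 window, some of which overlap, and is absent from those of Ccar1 and Sirt4, and 35.7% of all windows and 87.6% of those with at least 30 CpG sites hold it. CCAAT and TATAAA were searched on both strands as well and are absent from the Ccar1, Sirt1 and Sirt4 windows. They occur in 37.4% and 13.6% of all windows. All of these are matches of letters in the reference strain, and no binding was measured.

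The calls of Ccar1, Sirt1 and Sirt4 were near the threshold and were lost when some arrays were left out. Their adjusted p stayed under 0.05 in 2, 1 and 2 of the 6 limma fits that left out 1 array, and reached at most 0.12, 0.13 and 0.13. None of the 3 passed without AKR F1 replicate 2 or without DBA F1 replicate 2. Without AKR F1 replicate 3 only the dim Ccar1 probe set 1453319_at passed (-0.77), and without DBA F1 replicate 1 only Ccar1 at 1436157_at did. The direction held in each of these 6 fits: Ccar1 at 1436157_at ranged from -0.49 to -0.37, Sirt1 from -0.53 to -0.36 and Sirt4 from 0.37 to 0.50. With the 3' to 5' index as a covariate limma called 0 of the 12 (3 at an unadjusted p under 0.05), with -0.27 for Ccar1, -0.37 for Sirt1 and 0.27 for Sirt4, and with the hybridization controls it called 0 (0 at an unadjusted p under 0.05), with -0.45, -0.22 and 0.32. In these fits the standard error of a probe set was larger, by a median factor of 1.86 and 2.28.

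**Figure D3:**
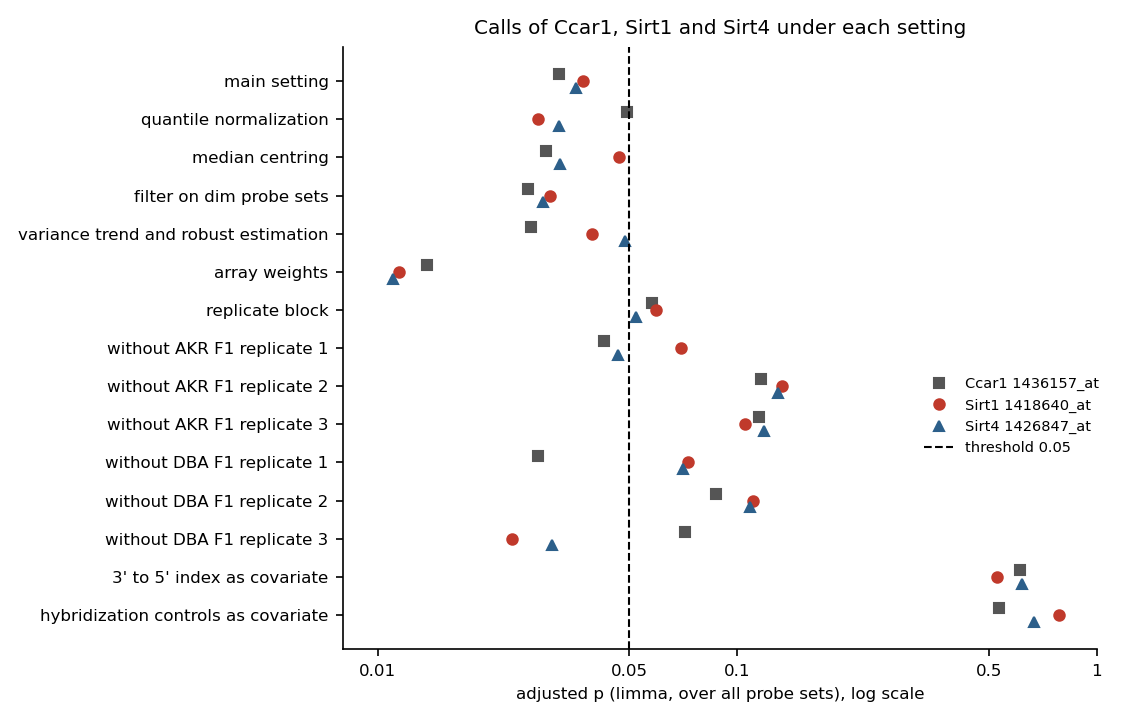
Adjusted p of Ccar1 (squares), Sirt1 (circles) and Sirt4 (triangles) in limma under each setting, on a log axis, with the threshold of 0.05 as a dashed line. The main setting gives 0.032, 0.037 and 0.036. No point stays left of the line without AKR F1 replicate 2, AKR F1 replicate 3 or DBA F1 replicate 2. The same holds under the replicate block and with either control measure as a covariate.

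Ccar1 and Sirt1 lie near each other on chromosome 10, with 11 measured genes between them. These genes were looked at after the values of Ccar1 and Sirt1 were seen, and 1 of the 11 passed, Slc25a16, which encodes a mitochondrial carrier. It averaged 6.14 ± 0.21 in AKR F1 marrow and 7.15 ± 0.15 in DBA F1 marrow (SD, n = 3 each), a log2 difference of -1.01 (adjusted p = 0.0041 in limma over genes). Of the nearest measured neighbours, Dnajc12, a cochaperone gene on the far side of Sirt1, was lower as well, averaging 6.82 ± 0.03 in AKR F1 marrow and 7.37 ± 0.13 in DBA F1 marrow (SD, n = 3 each; difference -0.55, adjusted p = 0.010 in limma). Herc4 on the near side of Sirt1, Tet1 on the near side of Ccar1 and Stox1 on its far side differed by -0.17, -0.36 and 0.02 and did not pass. Ccar1 and Sirt1 set the ends of this stretch and were already known to be lower, so their shared direction is no result about it. Slc25a16 and Dnajc12 were lower too, among others that did not pass. Over all 18193 genes 15.2% passed, 9.2% higher and 6.04% lower in AKR F1, and the groups did not overlap in 36.7%. Beside Sirt4 on chromosome 5, Pla2g1b and Pxn differed by 0.12 and 0.28 and did not pass.

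The neighbours of Ccar2 differed less than Ccar2 did, which follows from choosing Ccar2 for its large difference and is no result about the region. Of the 6 measured genes on each side, 1 of 12 passed, against 15.2% of all genes, 9.2% higher and 6.04% lower. It was Sorbs3, which encodes vinexin, an adaptor of cell adhesion sites. Sorbs3 averaged 6.76 ± 0.11 in AKR F1 marrow and 6.16 ± 0.13 in DBA F1 marrow (SD, n = 3 each), a log2 difference of 0.60 (adjusted p = 0.010 in limma). The immediate neighbours were Bin3, averaging 10.03 ± 0.03 in AKR F1 marrow and 9.61 ± 0.28 in DBA F1 marrow (SD, n = 3 each; difference 0.42, adjusted p = 0.073 in limma), and 9930012K11Rik, which differed by -0.09. Bin3 passed in limma after quantile normalization (0.44, adjusted p = 0.042), with array weights (adjusted p = 0.043) and without DBA F1 replicate 1 (0.52, adjusted p = 0.037). Pdlim2, next to Sorbs3, differed by 0.36 and did not pass, with values of 0.10 to 0.59 when each array was left out, and passed without DBA F1 replicate 1 (0.59, adjusted p = 0.044 in limma). The remaining neighbours differed by -0.14 to 0.20.

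**Figure D4:**
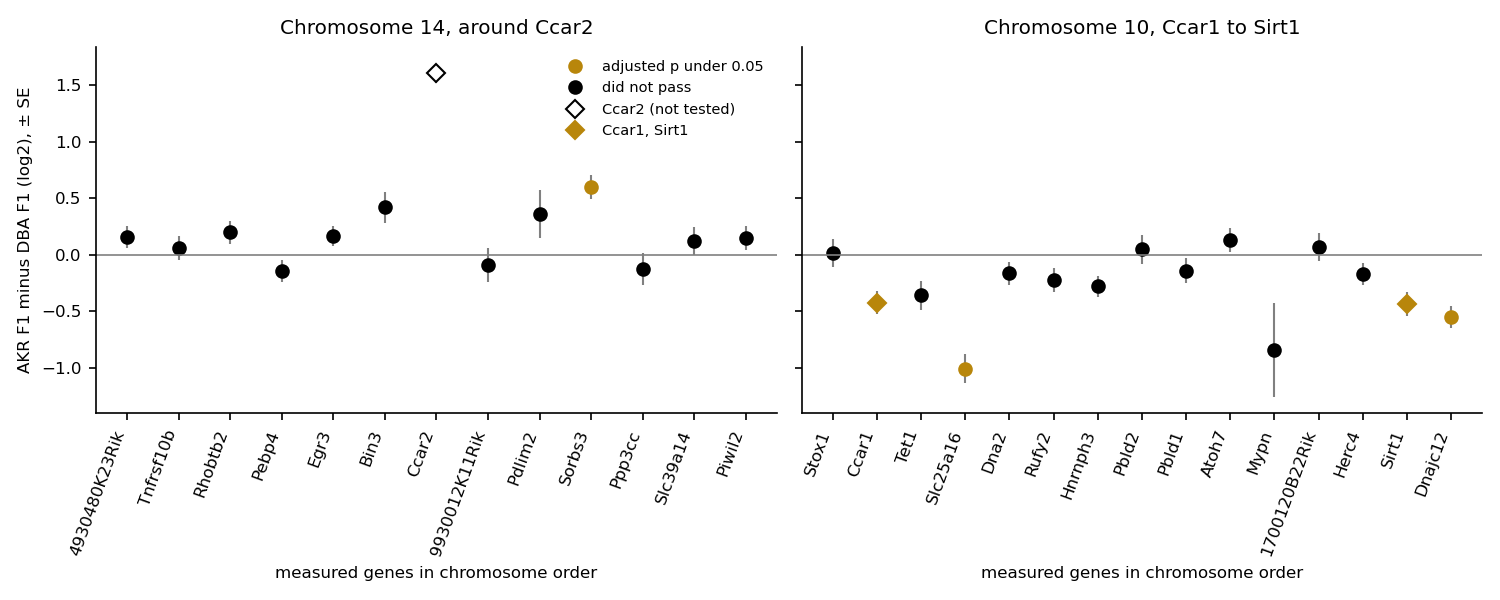
AKR F1 minus DBA F1 difference with its standard error for measured genes in chromosome order, around Ccar2 (left) and from Ccar1 to Sirt1 with the next gene on each side (right). Gold marks genes past the test, and diamonds mark Ccar2 (open), Ccar1 and Sirt1. Ccar2, chosen for its difference, lies at 1.61. Ccar1, Slc25a16, Sirt1 and Dnajc12 are the called genes on the right, at -0.43, -1.01, -0.44 and -0.55.

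Partners and regulators of CCAR2 and SIRT1 went both ways. Of 35 such genes 31 were measured at their brightest probe set. Past the test were 5 higher and 2 lower in AKR F1, or 22.6%, against 15.2% of all genes, and the median difference was 0.10, against 0.06 for all genes. Averaging the probe sets of each gene gave 4 higher and 4 lower. Atm, the DNA damage kinase that phosphorylates CCAR2, read 7.35, 7.16 and 7.37 in AKR F1, against 7.95, 7.96 and 8.08 in DBA F1, differing by -0.70 (SE 0.09, adjusted p = 0.0053 in limma over genes). It was called in all 6 fits that left out 1 array. At its second probe set the difference of -0.30 did not pass. Rela, a subunit of NF-kappaB and a SIRT1 substrate, was at 9.99 in each AKR F1 array, against 9.55, 9.31 and 9.06 in DBA F1, a 1.61-fold rise in AKR F1 (adjusted p = 0.012, limma).

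The other calls of this list were smaller or less even between probe sets. Psme3, which encodes a proteasome activator reported to bind CCAR2, was 1.80-fold higher at its brightest probe set (difference 0.85, adjusted p = 0.022 in limma), but a second one differed by 0.14 and did not pass. Nr1h3, the liver X receptor alpha gene, was higher by 0.52, Crtc2, a coactivator of CREB, by 0.42 and the histone deacetylase gene Hdac3 by 0.35. Hif1a, the oxygen-regulated transcription factor gene, was lower with a difference of -0.32, and its other probe sets differed by -0.07, -0.06 and -1.01, of which the last passed. The Hif1a call was lost in each of the 6 fits that left out 1 array (adjusted p 0.053 to 0.15 in limma) and in the fit over all probe sets (adjusted p = 0.0501 in limma). Zfp326, whose product joins CCAR2 in a complex acting on splicing and is named here for that role, differed by -0.19 and did not pass (adjusted p = 0.16 in limma). Leaving out AKR F1 replicate 1, 2 or 3 brought the 7 calls to 3, 1 and 1, and leaving out DBA F1 replicate 2 or 3 to 4 and 3.

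Genes that p53 activates held calls at about the share of all genes, and the balance of directions depended on how probe sets were read. Of 30 genes 28 were measured. Past the test were 2 higher and 2 lower in AKR F1, or 14.3%, against 15.2% of all genes, and the median difference was -0.03. Averaging the probe sets of each gene gave 1 higher and 5 lower. Btg2, an antiproliferative gene, averaged 11.37 ± 0.04 in AKR F1 marrow and 10.80 ± 0.05 in DBA F1 marrow (SD, n = 3 each), a log2 difference of 0.57 (adjusted p = 0.0065 in limma), and was called in all 6 fits that left out 1 array. At the other Btg2 probe set the difference was 0.28, which did not pass. Polk, the gene of a translesion polymerase, was higher by 0.41 at its brightest probe set, while the other differed by -0.16 and did not pass. Apaf1, the apoptosome scaffold gene, was lower, with a difference of -0.55, and so was Ccng1, the cyclin G gene, with -0.53. The other probe sets of both were lower too, with differences of -0.80 for Apaf1 and of -0.93 and -1.01 for Ccng1. The best known p53 targets, named for that role, did not pass: Cdkn1a differed by 0.33 (adjusted p = 0.11 in limma) and Mdm2 by -0.25 (adjusted p = 0.089 in limma). Cdkn1a passed with array weights (adjusted p = 0.046, limma) and Mdm2 when its probe sets were averaged (-0.42, adjusted p = 0.022, limma). Leaving out AKR F1 replicate 2 or 3 brought the 4 calls to 1 and 2.

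NAD metabolism, which supplies the cosubstrate of all sirtuins, held 4 calls, all higher in AKR F1. Of 34 genes 31 were measured and 27 did not pass, and the median was 0.04. The called share of 12.9% is close to the 15.2% of all genes. Afmid, Haao and Qprt encode enzymes of the synthesis of NAD from tryptophan, and Naprt the enzyme that starts its synthesis from nicotinic acid. Haao averaged 6.87 ± 0.04 in AKR F1 marrow and 6.36 ± 0.10 in DBA F1 marrow (SD, n = 3 each), a 1.42-fold rise in AKR F1 (adjusted p = 0.011, limma). Naprt, Qprt and Afmid were higher by 0.69, 0.64 and 0.58, with adjusted p of 0.016, 0.0080 and 0.030 in limma. At the second Qprt probe set the difference was 0.03, which did not pass, whereas a second Afmid probe set was higher by 0.41 and did. The remaining Afmid probe sets were higher by 0.42 and 0.22 and did not pass. Nampt, the rate-limiting enzyme of NAD salvage from nicotinamide and named for that role, differed by -0.25 and did not pass (adjusted p = 0.23 in limma). Leaving out AKR F1 replicate 2 or 3 brought the 4 calls to 1 and 2, and averaging the probe sets of each gene gave 4 higher and 3 lower, with Nampt among the lower at -0.49 (adjusted p = 0.015, limma).

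The zinc-dependent histone deacetylases, the lysine deacetylases that do not use NAD, are the enzyme group most like the sirtuins. All 11 were measured. Past the test were 3 higher and 3 lower in AKR F1, or 54.5%, against 15.2% of all genes, and the median difference was 0.22, against 0.06 for all genes. Hdac7 was higher by 0.56 (adjusted p = 0.018 in limma), Hdac10 by 0.49 and Hdac3 by 0.35. Hdac9 differed by -0.63 (adjusted p = 0.020 in limma), Hdac8 by -0.39 and Hdac2 by -0.33. In the fit over all probe sets Hdac3, Hdac8 and Hdac10 did not pass, with adjusted p of 0.053, 0.055 and 0.051 in limma. Other probe sets differed by 0.44 for Hdac7, by -0.38 and -0.54 for Hdac2, by -0.04 for Hdac9 and by -0.01 for Hdac10, and none of these passed. The count rests on calls near the threshold: limma gave 1, 1 and 0 without AKR F1 replicate 1, 2 or 3, 0 without DBA F1 replicate 2, and 3 after median centring. At an unadjusted p under 0.05 these fits with 0 calls held 7 each. Like the sirtuins, these genes moved both ways, and the difference between the gene groups was not tested.

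Substrates of the mitochondrial sirtuins included the largest difference of the 5 lists. Of 31 genes 28 were measured. Past the test were 3 higher and 4 lower in AKR F1, or 25%, against 15.2% of all genes, and the median difference was -0.04. Averaging the probe sets of each gene gave 1 higher and 5 lower. Mlycd, malonyl-CoA decarboxylase, which SIRT4 deacetylates, read 6.82, 6.88 and 6.88 in AKR F1, against 7.97, 8.40 and 8.13 in DBA F1. The groups lie more than a log2 unit apart, differing by -1.31 (SE 0.12, adjusted p = 0.0015, limma), or 2.47-fold lower, called in all 6 fits that left out 1 array. Pdha1, a subunit of pyruvate dehydrogenase, was lower at both of its probe sets, with differences of -0.38 and -0.76. Sucla2, a subunit of succinyl-CoA synthetase, and Acadm, a fatty acid oxidation enzyme gene, were lower, with differences of -0.41 and -0.31. The Acadm call was lost in each of the 6 fits that left out 1 array (adjusted p 0.061 to 0.12 in limma).

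The rises in that list were in Got2, the mitochondrial aspartate aminotransferase gene (0.49), Ogg1, the gene of an oxidized guanine glycosylase (0.45), and Ppif, the gene of cyclophilin D (0.43). Both probe sets of Ogg1 were higher, while a second one of Ppif differed by -0.31 and one of Got2 by 0.14, and neither passed. Mitochondria are abundant in muscle, and the muscle markers were higher in every DBA F1 array, and their part in the differences of this list was not tested. Leaving out AKR F1 replicate 1, 2 or 3 brought the 7 calls to 2, 1 and 1. Over all 5 lists 27 different genes were called in the fit over genes, and 22 of these also passed in the fit over all probe sets.

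**Figure D5:**
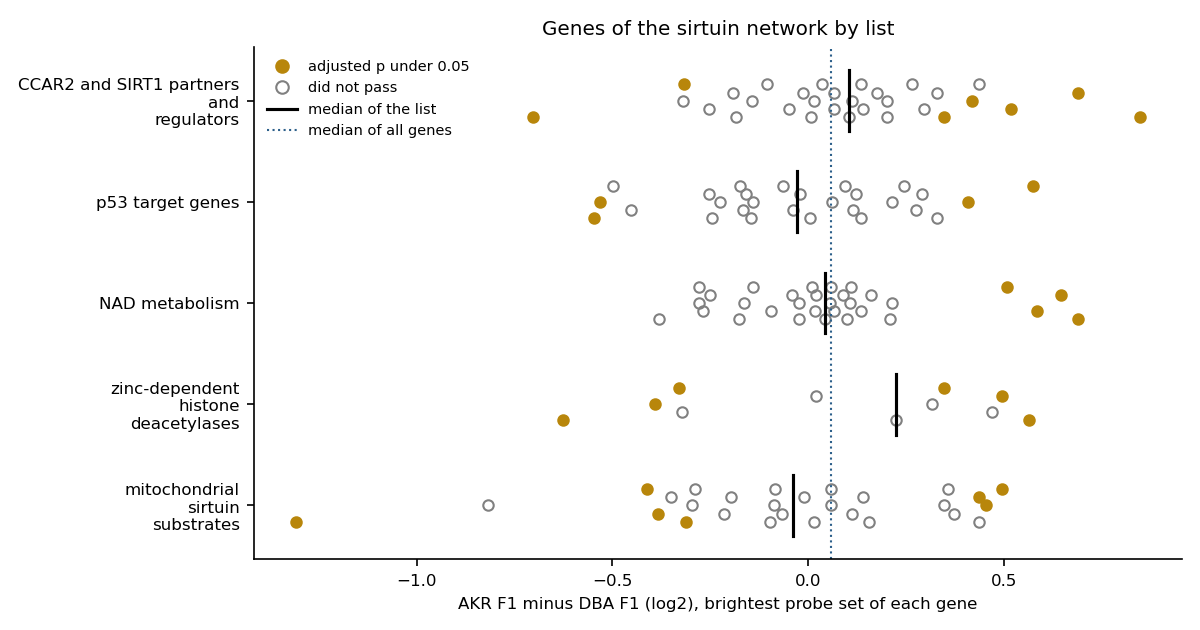
AKR F1 minus DBA F1 difference of each measured gene of the 5 lists on the log2 scale, 1 point a gene, with gold for genes past the adjusted threshold, a black line at the median of the list and a dotted line at the median of all genes (0.06). At the brightest probe sets, called genes lie on both sides of 0 except in NAD metabolism. Averaging the probe sets of each gene gave 4 higher and 3 lower in that list. Mlycd is the lowest point at -1.31.

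The genes whose profile over the 6 arrays was most like that of Ccar2 were Sdf2l1, Chtf8, Alyref, Spen and Ube2r2. Likeness was the root mean square distance between profiles centred on their own means, in log2 units over 6 arrays, and ran from 0.055 for Sdf2l1 to 0.19 for Ube2r2. Since the arrays fall into 2 groups, such a profile is little more than a similar difference between the crosses. Sdf2l1, which encodes a protein of the endoplasmic reticulum chaperone machinery, read 8.43, 8.51 and 8.52 in AKR F1, against 6.80, 7.02 and 6.86 in DBA F1. Chtf8, Alyref, Spen and Ube2r2 differed by 1.41, 1.71, 1.53 and 1.26. Averaged over the probe sets of the gene, Alyref differed by 0.69 and Ube2r2 by 0.76. These genes lie on chromosomes 16, 8, 11 and 4, none on chromosome 14 with Ccar2. Of the other members Sirt4 came nearest to the Ccar2 profile, at a distance of 0.60, and Sirt1 was farthest, at 1.03.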

How the data were processed

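Per the labels' protocols, Trizol RNA of snap-frozen marrow was biotin-labelled for Affymetrix arrays. The authors deposited log2 values for 45101 probe sets, on a common scale, since the array medians span only 5.14 to 5.19. RMA and MAS5 appear in the submitters' processing notes, and the sources used here do not say which of them made these values. No detection calls or scan batches were used here, and the number of arrays limits the precision. No sample column was left unused.

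Tests left out 64 control probe sets. Of the 45037 others, 34945 have 1 gene symbol, 932 several and 9160 none. Chromosome and gene order come from the RefSeq table of GRCm38.p6, used for names and order only, except for the promoter windows. limma 3.58.1 (R 4.3.3) was fitted as AKR F1 minus DBA F1 with 4 residual degrees of freedom. The tests were two-sided, Benjamini-Hochberg adjusted and called under 0.05, over all probe sets (values of members) and over 18193 genes at their brightest probe set (lists, neighbours, likeness). The script was tested on simulated data.

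Members and lists were chosen with earlier results of these data known, and the lists overlap in a few genes. Named were all members, in each list the 4 genes with the smallest p and up to 6 more past the test, 6 neighbours on each side of Ccar2, 1 on each side of other called members, and the 5 genes most like Ccar2. Zfp326, Nampt, Cdkn1a and Mdm2 were added for their roles, and Slc25a16 after its value was seen. Alternatives were quantile normalization, median centring, dropping dim probe sets, a robust fit with a variance trend, weights for arrays, a replicate block, leaving out each array, the control measures as covariates and averaging the probe sets of each gene.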

Additional observations from a re-analysis of the deposited data

How the results depend on the processing

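The Ccar2 difference lay between 1.58 and 1.63 when each array was left out, and was 1.55 with the 3' to 5' index and 1.72 with the hybridization controls as covariates. Of the other member probe sets, 3 passed under quantile normalization, median centring, the dim filter, the variance trend and array weights. With the replicate block limma called 0 (5 at an unadjusted p under 0.05), and leaving out arrays gave 0 to 2. Whether the replicate numbers pair the samples is not known, and so few arrays cannot settle it. Deviations of same-numbered arrays correlated at 0.05, 0.02 and 0.08, and those of differently numbered arrays at -0.12 to 0.05. The replicate block fit called 5321 probe sets against 5541.

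Leaving out arrays gave 1683 to 5581 probe sets and 685 to 3248 genes, 1 to 7 partners and regulators, 1 to 5 p53 targets, 1 to 6 NAD genes, 0 to 7 zinc-dependent deacetylases and 1 to 10 mitochondrial substrates. The 3' to 5' index left 53 probe sets and 3 genes, the hybridization controls 12 and 2, and in limma either left 0 members and 0 genes of each list. At an unadjusted p under 0.05 these fits held 3 and 0 members, 8 and 4 partners and regulators, 7 and 5 p53 targets, 3 and 7 NAD genes, 2 and 0 deacetylases and 6 and 6 mitochondrial substrates. The replicate block gave 4 partners and regulators and 3 deacetylases, median centring 3 deacetylases, array weights 13 mitochondrial substrates and averaging the probe sets of a gene 7 NAD genes. The cause of these losses was not tested.

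Of the single differences only ones that did not pass in the main setting changed sign. Under the 3' to 5' index Sirt3 was -0.18, Tnfrsf10b -0.18, 9930012K11Rik 0.13, Slc39a14 -0.26, Stox1 -0.28 and Nampt 0.18. With the hybridization controls Ccar1 at 1436156_at was 0.13, Ppp3cc 0.021, Piwil2 -0.18 and Pla2g1b -0.21. Array weights gave Sirt3 -0.023, quantile normalization Stox1 -0.0076, and averaging the probe sets of a gene Egr3 -0.094 and Herc4 0.083. Leaving out arrays, Sirt3 ranged from -0.090 to 0.079, Tnfrsf10b from -0.0020 to 0.14, 9930012K11Rik from -0.23 to 0.049 and Stox1 from -0.061 to 0.12.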
